A study of Mus musculus with 10 samples.

Results

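The proteasome genes on the array were taken as all non-control probes whose gene name begins with Psm, a class letter from a to g and a number, without the interferon-inducible subunits Psmb8, Psmb9 and Psmb10. This gave 46 gene names with 58 probes, of which 44 genes were among the 24007 genes tested. Psma8 and Psmb11, whose products are known from germ cells and from thymus, were too dim to be tested, and Psmc3ip matches the name pattern but encodes a meiotic recombination factor, so it was counted among the 44 and placed in no subunit class. The core members are 16 genes of the alpha and beta rings (14 tested). The regulatory members are the 20 Psmc and Psmd genes (all tested). By name they include Psmd5, Psmd9 and Psmd10, which encode chaperones of the base and not subunits. The rest are 4 activators (Psme1 to Psme4), the inhibitor Psmf1 and 4 assembly chaperones (Psmg1 to Psmg4).

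Livers came from female C57BL/6 mice aged 8 weeks that had all been fasted for 24 h. Treated mice then received 350 mg/kg acetaminophen in phosphate-buffered saline by a single intraperitoneal injection, control mice received the saline, and livers were collected 3, 8, 24, 48 or 72 h later. Acetaminophen is a painkiller whose overdose injures hepatocytes through a reactive metabolite. There were 10 two-colour arrays, 2 for each time point. On every one a control liver was labelled with Cy3 and a treated liver, from a separately numbered animal, with Cy5. Each value is the log2 of treated over control signal ± SE of the fit, n = 2 arrays, and a gene is said to have risen or fallen where the adjusted p of the limma test over all 24007 genes was under 0.05. Since no array had the dyes swapped, dye bias and treatment cannot be told apart at a single time point, while a bias shared by all arrays cancels between time points. Before normalization the median log2 ratio was not shared: it ran from -1.88 (3 h replicate 1) to 0.41 (48 h replicate 3). Differences between time points thus rest on the correction made within each array. In whole liver, fewer cells of a type and less RNA per cell cannot be told apart.

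The proteasome degrades proteins that carry ubiquitin chains. Its core particle is a barrel of outer alpha rings, which gate the entrance, and inner beta rings, which hold the proteolytic sites. The regulatory particle caps the barrel: its ATPases unfold the substrate and push it inside, and its other subunits bind ubiquitin, remove it and hold the cap together. When proteasome capacity falls short, the transcription factor encoded by Nfe2l1 is known to raise the subunit genes together through antioxidant response elements, and the liver relies on this degradation system to clear damaged and misfolded proteins.

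Promoter sequences are shown first, because the members moved in groups and these 2 short motifs are known binding sequences of factors that act on housekeeping and stress genes. RefSeq (GRCm38.p6) gave 41 promoter entries for 38 of the 46 genes, and both strands of the 250 bases before each annotated start were searched. No entry was found for Psmd3, Psmg2, Psmc3, Psmb7, Psmd7, Psmb1, Psmb2 and Psma8. The antioxidant response element core TGACNNNGC was present in 5 of the 41 entries (12.2%), against 10.2% of all 32851 promoters of the same length. Each stretch of 80 bases is written 5′ to 3′ on the strand of the gene, with the match in capitals (TGACNNNGC or its reverse complement), and the match lay 31 to 23 bases before the start in Psmd9, 9 to 1 in Psmb6, 47 to 39 in Psmb5, 227 to 219 in Psmc6 and 247 to 239 in Psmd12.
Psmb5 (chr14:54617999-54618078, minus strand): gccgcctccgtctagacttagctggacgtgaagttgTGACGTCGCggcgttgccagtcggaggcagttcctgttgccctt
Psmb6 (chr11:70525277-70525356, plus strand): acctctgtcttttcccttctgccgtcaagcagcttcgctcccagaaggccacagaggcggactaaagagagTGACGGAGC
Psmd9 (chr5:123228110-123228189, plus strand): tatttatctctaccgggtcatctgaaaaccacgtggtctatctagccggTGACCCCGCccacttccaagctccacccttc
Psmc6 (chr14:45329574-45329653, plus strand): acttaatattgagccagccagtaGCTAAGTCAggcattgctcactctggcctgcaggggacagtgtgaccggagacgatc
Psmd12 (chr11:107479278-107479357, plus strand): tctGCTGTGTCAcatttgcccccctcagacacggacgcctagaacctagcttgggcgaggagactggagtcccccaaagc

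The ETS factor motif CCGGAAG was present in 14 of the 41 entries (34.1%, in 13 genes), against 6.91% of all promoters. In Psmc6 and Psmd12, which hold both motifs, the matches did not overlap. The stretches of Psmd4, Psmd2 and Psmc1 are shown because these 3 genes hold the motif and were called higher at both 24 and 48 h, with the match 125 to 119, 26 to 20 and 28 to 22 bases before the start. The motif was also found in Psmc3ip, Psmc6, Psmd11, Psmd12 and Psme4, which were called at no time point. Psma6 and Psmd6, which hold it too, rose at 48 h only, and Psmc2 at 24 h only. It was present as well in Psme3, which rose at 3 and 8 h only, and in Psmg1, which fell at 8 and 24 h. A match describes these letters and shows no binding.
Psmd4 (chr3:95042697-95042776, minus strand): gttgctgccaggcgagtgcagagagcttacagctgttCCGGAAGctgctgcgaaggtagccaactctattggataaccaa
Psmd2 (chr16:20651572-20651651, plus strand): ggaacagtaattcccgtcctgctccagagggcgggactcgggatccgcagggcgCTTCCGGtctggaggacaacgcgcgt
Psmc1 (chr12:100110122-100110201, plus strand): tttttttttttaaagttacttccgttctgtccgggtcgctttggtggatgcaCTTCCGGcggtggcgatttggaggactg

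The signals behind the members differed in strength. Mean log2 intensity was 13.7 for Psmb5, but 7.79 for Psmf1, 7.99 for Psmd10 and 8.32 for Psmb2. The untested Psma8 and Psmb11 were at 6.85 and 6.78. Apart from Psmc3ip, the tested members were well above background in both channels of all 10 arrays, with the exception of Psmf1 in the treated channel (9 arrays). Psmc3ip was above background in 4 control and 3 treated channels, and no member was saturated. Across genes, not a set of independent replicates, the correlation between both arrays of a time point was 0.68, 0.80, 0.76, 0.86 and 0.27 in order of time. The arrays lie on 4 slides scanned on 2 days. Among marker genes, 5 of 11 hepatocyte genes fell at 24 h and 7 at 48 h. At 48 h, 6 of 10 macrophage and Kupffer cell genes rose, and so did 4 of 7 neutrophil genes (3 at 24 h, with 1 falling at 48 h) and 3 of 6 genes of monocyte-derived macrophages (1 fell). At 48 h, 2 of 6 proliferation, 2 of 6 endothelial and 2 of 4 cholangiocyte genes rose, 1 of 7 stellate cell genes fell, and the 6 T cell and 4 B cell genes did not pass. Among all genes 17.9% rose and 13.5% fell at 48 h, and 3.79% rose and 7.09% fell at 24 h. Ly6g, Mpo, Ngp, Ly6c2, Trac, Epcam and Top2a were not among the genes tested. The summed level of the macrophage genes at 48 h, on the log2 scale, was 12.4 to 12.9 in control and 13.9 to 14.2 in treated livers. Its brightest probe in treated livers was that of Marco, at 9.43 and 9.53 in control and 13.5 and 13.0 in treated livers, while Csf1r, the brightest in control livers, had a ratio of -0.04. The neutrophil sum was 11.2 to 11.8 against 13.0 to 14.2 at 24 h and 10.9 to 11.1 against 12.9 to 13.0 at 48 h, and the hepatocyte sum at 48 h was 19.8 to 19.9 against 18.7 to 19.1. The part of these cell types in the changes of the proteasome genes was not tested.

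The question of the time course was when, and how uniformly, the proteasome genes responded. They were slightly low at 3 h, mixed at 8 h, high at 24 and 48 h, and back at or just under the control level at 72 h. At 3 h, 1 of the 44 genes rose (3.36% of all genes did) and 6 fell (4.08% of all genes did), and 38 of 44 had a ratio below 0. At 8 h, 3 rose and 6 fell, against 5.33% and 7.57% of all genes. At 24 h, 18 rose and 4 fell, or 40.9% and 9.09% of the members, against 3.79% and 7.09% of all genes. At 48 h, 25 rose and 2 fell, or 56.8% and 4.55%, against 17.9% and 13.5% of all genes. At 72 h no member was called in either direction in the limma test, as was 0% of all genes, and at an unadjusted p under 0.05 there were 9 lower and 0 higher members, with 41 of 44 ratios below 0.

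**Figure D1:**
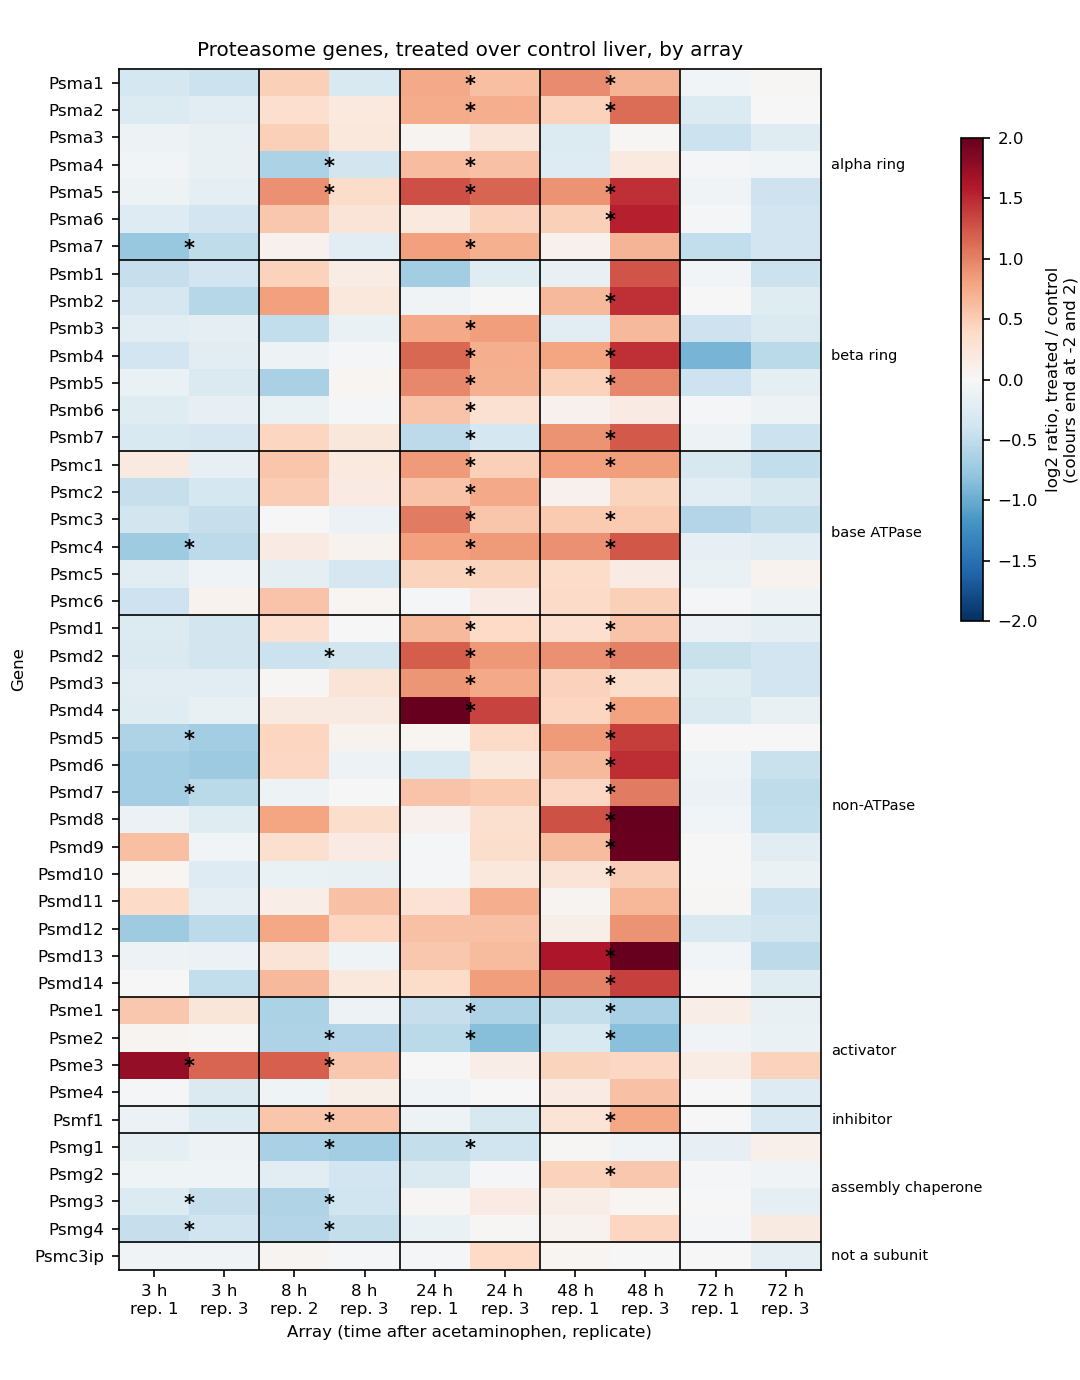
The log2 ratio of treated over control liver is drawn as colour for the 44 tested proteasome genes (rows, grouped by class) on each of the 10 arrays (columns, time and replicate), with asterisks between the 2 arrays of a time point where the gene was called. Red fills most core and regulatory rows at 24 and 48 h, while Psme1, Psme2 and the assembly chaperones stay pale or blue there apart from Psmg2 at 48 h. Under median centring of the arrays the ratios of 9 of the genes called higher at 24 h turn below 0.

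**Figure D2:**
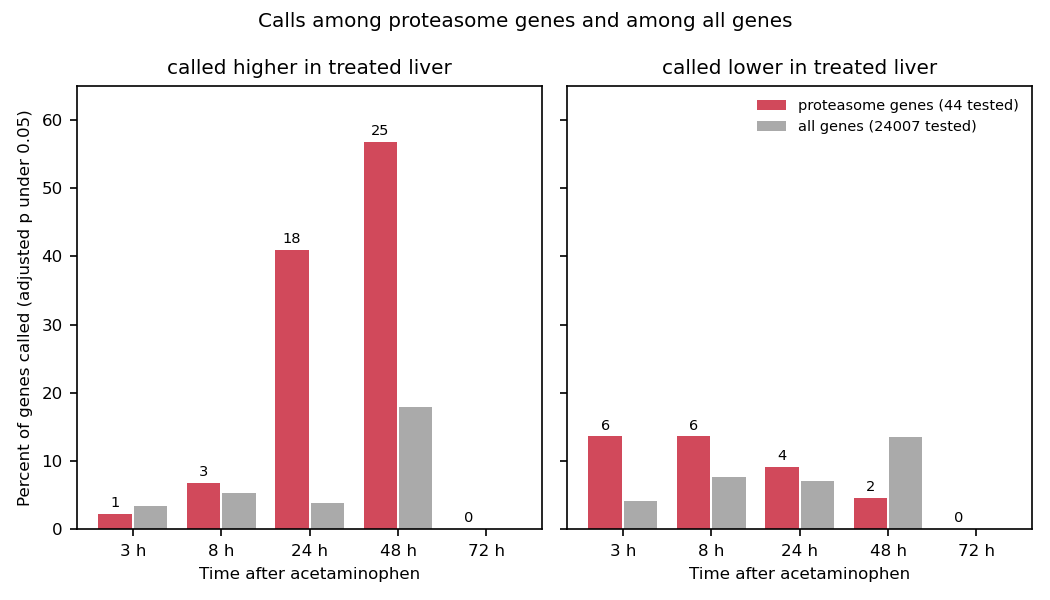
Bars give the percentage of the 44 tested proteasome genes and of all 24007 tested genes called higher (left) or lower (right) at each time point, with the number of proteasome genes above their bar. The members exceed all genes among rises at 24 h (40.9% against 3.79%) and 48 h (56.8% against 17.9%), and 0 were called at 72 h. Under median centring the count of rises at 24 h is 0, beside 0.108% of all genes.

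These counts rest on the intensity-dependent dye correction and on few arrays. When each array was centred on its median in place of loess, 20 members fell at 3 h, 0 rose at 24 h and 14 rose at 48 h. Among all genes, 20.8% fell at 3 h, 0.108% rose at 24 h and 10.5% rose at 48 h under that centring. With it the ratios of Psma2, Psma4, Psma7, Psmb6, Psmc1, Psmc2, Psmc3, Psmc5 and Psmd1 at 24 h lay below 0. With slide as a block, an alternative chosen after seeing the data, 7 rose at 24 h and 14 at 48 h. Those of 24 h were Psmb5, Psmc1, Psmc3, Psmc4, Psmd2, Psmd3 and Psmd4. Among all genes 1.82% and 9.46% rose at these times with that block. Without replicate 1 or replicate 3 of 24 h, 7 and 9 rose at 24 h. The 6 falls of 3 h became 0 and 1 without replicate 1 or replicate 3 of 3 h, and the 6 falls of 8 h became 1 and 3 without replicate 2 or replicate 3 of 8 h.

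Core and regulatory members moved side by side. On the 2 arrays of each time point the median log2 ratio of the 14 core members was -0.27 and -0.26 at 3 h, 0.38 and 0.09 at 8 h, 0.68 and 0.60 at 24 h, 0.46 and 1.04 at 48 h, and -0.08 and -0.27 at 72 h. The median of the 20 regulatory members was -0.26 and -0.30, 0.29 and 0.07, 0.55 and 0.54, 0.49 and 0.87, and -0.11 and -0.34 at the same times. All genes had medians within 0.02 of 0 on each array.

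Core minus regulatory came to 0.02 ± 0.04 (SD over the 2 arrays), 0.06 ± 0.05, 0.09 ± 0.05, 0.07 ± 0.14 and 0.05 ± 0.03 in order of time. These differences are small beside the shift that both classes made, and the sign turned at each of the 5 time points when means replaced medians (-0.01, -0.06, -0.08, -0.17 and -0.02). No test was made of this difference, since genes of a class are not replicates. In counts, 9 of 14 core members rose at 24 h and 8 at 48 h, against 9 and 15 of 20 regulatory members. Among all genes 3.79% and 17.9% rose at these times. The 15 include the base chaperones Psmd5, Psmd9 and Psmd10.

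**Figure D3:**
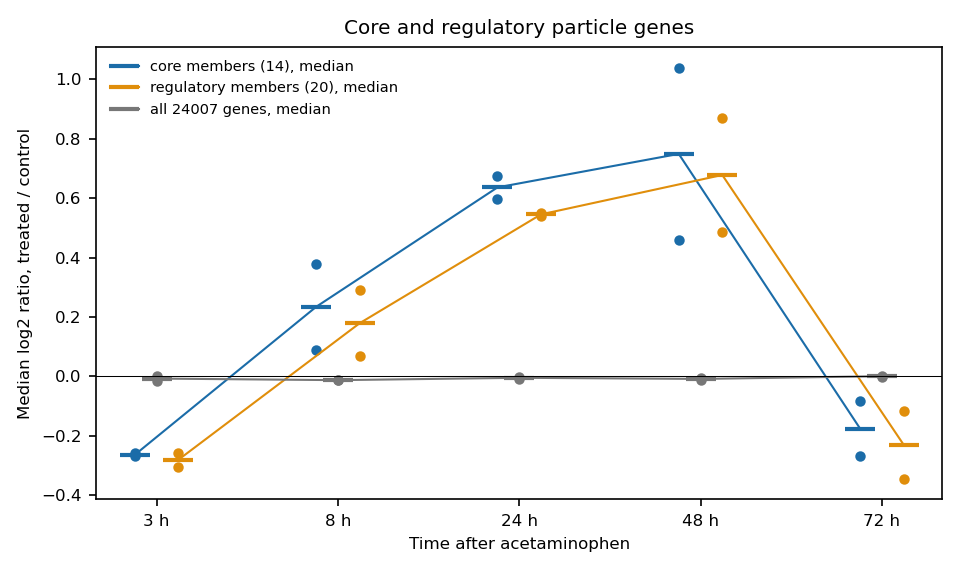
Points give the median log2 ratio of the 14 tested core members, the 20 regulatory members and all 24007 genes on each array, and dashes joined by lines give the mean of the 2 arrays at each time point. The core and regulatory classes run from -0.26 and -0.28 at 3 h to 0.75 and 0.68 at 48 h and back below 0 at 72 h, with the arrays far apart at 48 h.

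The alpha ring genes, which build the gated ends of the core, gave 5 rises among 7 tested genes at 24 h and 4 at 48 h. Of all genes, 3.79% and 17.9% rose at these times. Psma5 (probe at chr3:108082777-108082836 in mm9) had the largest ratio of its class at both times, with 0.91 and 0.36 on the 2 arrays at 8 h, 1.28 and 1.16 at 24 h and 0.90 and 1.46 at 48 h. Its fitted ratio was 0.64 ± 0.17 at 8 h (-0.07 under median centring), then 1.22 ± 0.17 and 1.18 ± 0.17. All 6 of these arrays were above 0. Psma6 read 0.47 and 1.56 on the 48 h arrays, a rise of 1.02 ± 0.22 carried more by replicate 3, and 0.33 ± 0.22 at 24 h, which was not called. Psma1 and Psma2 rose at both times, by 0.68 and 0.74 at 24 h and by 0.81 and 0.79 at 48 h, whereas Psma2 at 24 h stood at -0.03 under median centring. Psma7 fell by 0.63 ± 0.14 at 3 h and rose by 0.76 ± 0.14 at 24 h, the latter a ratio of -0.0022 under median centring. Psma4 went from -0.50 ± 0.11 at 8 h to 0.60 ± 0.11 at 24 h, again below 0 under median centring (-0.11), and to -0.04 ± 0.11 at 48 h. A second probe of Psma4 read 0.18 at 24 h and 0.33 at 48 h and was not called at either. Psma3 was called at no time point.

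Among the beta ring genes the 3 catalytic subunits read differently over time by the probes used. The 24 h calls of Psmb6 and Psmb7 did not hold under each processing alternative and the scan day block, even without median centring. The 48 h call of Psmb7 held under all of these. Psmb5, the chymotrypsin-like site (chr14:55232957-55233016), read -0.65 and 0.03 on the 8 h arrays, 0.96 and 0.71 at 24 h and 0.46 and 0.95 at 48 h. It rose by 0.83 ± 0.17 at 24 h and 0.71 ± 0.17 at 48 h, with both arrays above 0 at each of these times. Its second probe gave 0.30 at 24 h, which was not called, and 0.92 at 48 h, which was.

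Psmb6, the caspase-like site (chr11:70341093-70341152), read 0.56 and 0.30 at 24 h and 0.08 and 0.16 at 48 h. It rose at 24 h by 0.43 ± 0.08, but stood at -0.35 there under median centring, and was at 0.12 ± 0.08 at 48 h. Psmb7, the trypsin-like site (a 60-base probe with a listed position from 38468966 to 38489385 on chromosome 2), read 0.43 and 0.23 at 8 h, -0.53 and -0.35 at 24 h and 0.90 and 1.23 at 48 h. Both arrays were thus below 0 at 24 h and above 0 at 48 h, with fitted ratios of -0.44 ± 0.11 (adjusted p = 0.0477) and 1.07 ± 0.11 (adjusted p = 0.00048).

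Of the structural beta genes, Psmb4 read 1.15 and 0.73 at 24 h and 0.79 and 1.47 at 48 h, with rises of 0.94 ± 0.17 and 1.13 ± 0.17. Psmb3 rose at 24 h by 0.80 ± 0.18 and was at 0.22 ± 0.18 at 48 h, while Psmb2 was at -0.03 ± 0.20 at 24 h and rose by 1.05 ± 0.20 at 48 h. Psmb1 was called at no time point and its 48 h arrays lay far apart, at -0.16 and 1.25. In all, 4 of 7 tested beta genes rose and 1 fell at 24 h, and 4 rose at 48 h. Over all genes 3.79% rose and 7.09% fell at 24 h, and 17.9% rose at 48 h.

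The ATPases of the regulatory particle, the motor that unfolds substrates, gave 5 rises among 6 genes at 24 h and 3 at 48 h. The shares of all genes that rose then were 3.79% and 17.9%. Psmc4 read -0.71 and -0.52 at 3 h, 0.83 and 0.86 at 24 h and 0.92 and 1.23 at 48 h. Its fitted ratios were -0.62 ± 0.09, 0.84 ± 0.09 and 1.08 ± 0.09, each called, with both arrays on one side of 0 each time. Psmc1 read 0.86 and 0.48 at 24 h and 0.82 and 0.84 at 48 h, with rises of 0.67 ± 0.13 and 0.83 ± 0.13. Psmc3 rose at both times too, by 0.79 ± 0.11 and 0.52 ± 0.11. Its second probe was called at both in the other order, at 0.42 and 1.09, and was called lower at 3 h (-0.51). Psmc2 and Psmc5 rose at 24 h by 0.66 ± 0.11 and 0.44 ± 0.09 and were both at 0.27 at 48 h, not called. The second probes of Psmc1 and Psmc2 read 0.45 and 0.56 at 24 h, neither called. At 48 h they read 1.07, which was called, and 0.39, which was not. Under median centring the 24 h ratios of Psmc1, Psmc2, Psmc3 and Psmc5 were below 0, at -0.08, -0.07, -0.0033 and -0.21. Psmc6 was called at no time point.

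The other regulatory members, the Psmd genes, gave 4 rises among 14 genes at 24 h and 12 at 48 h. Rises made up 3.79% and 17.9% of all genes at these times. The Psmd subunits bind and trim ubiquitin chains and hold the lid. The base chaperones Psmd5, Psmd9 and Psmd10 are counted with them and are among the 12 rises of 48 h. Psmd4, a ubiquitin receptor (chr3:94836627-94836686), had the largest member ratio of 24 h, at 2.08 and 1.36 on the 2 arrays, and read 0.17 and 0.17 at 8 h and 0.43 and 0.81 at 48 h. It rose by 1.72 ± 0.16 at 24 h and 0.62 ± 0.16 at 48 h, so that the arrays of 24 h did not overlap those of any other time. Psmd2, a scaffold subunit of the base (chr16:20663355-20663414), read -0.43 and -0.37 at 8 h, 1.21 and 0.86 at 24 h and 0.92 and 1.00 at 48 h. It thus fell by 0.40 ± 0.09 and then rose by 1.04 ± 0.09 and 0.96 ± 0.09. Psmd3 rose at both times, by 0.82 ± 0.08 and 0.40 ± 0.08, as did Psmd1, by 0.52 ± 0.11 (-0.18 under median centring) and 0.45 ± 0.11.

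At 48 h the largest ratios were those of Psmd13 and Psmd8, both subunits of the lid. Psmd13 (chr7:148084248-148084307) read 0.53 and 0.63 at 24 h and 1.62 and 2.15 at 48 h, a rise of 1.89 ± 0.15 at 48 h, against 0.58 ± 0.15 at 24 h (adjusted p = 0.0523). Psmd8 (a 60-base probe listed from 29961170 to 29962121 on chromosome 7) read 0.08 and 0.32 at 24 h and 1.27 and 2.00 at 48 h, a rise of 1.63 ± 0.19. For both genes each 48 h array was above every array of the other times.

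Psmd14, the enzyme that cuts ubiquitin off the substrate, rose by 1.18 ± 0.18 at 48 h and was at 0.60 ± 0.18 at 24 h. Psmd5, Psmd9 and Psmd10, chaperones that help assemble the base, rose at 48 h by 1.12 ± 0.14, 1.31 ± 0.29 and 0.37 ± 0.10, and each stood between 0.09 and 0.21 at 24 h. The 48 h arrays of Psmd9 were far apart, at 0.64 and 1.97, the latter with a low control level (7.41 on the log2 scale). Its second probe read 0.30 and was not called. The second probe of Psmd10 read 0.26 at 48 h and was not called either. Psmd6 and Psmd7 also rose at 48 h, by 1.06 ± 0.22 and 0.73 ± 0.15. At 3 h Psmd5 and Psmd7 had fallen, by 0.65 ± 0.14 and 0.61 ± 0.15. Psmd11 and Psmd12 were called at no time point by the probe used, while the second probe of Psmd12 was at 0.68 at 48 h and passed there (adjusted p = 0.0295 in the limma fit).

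**Figure D4:**
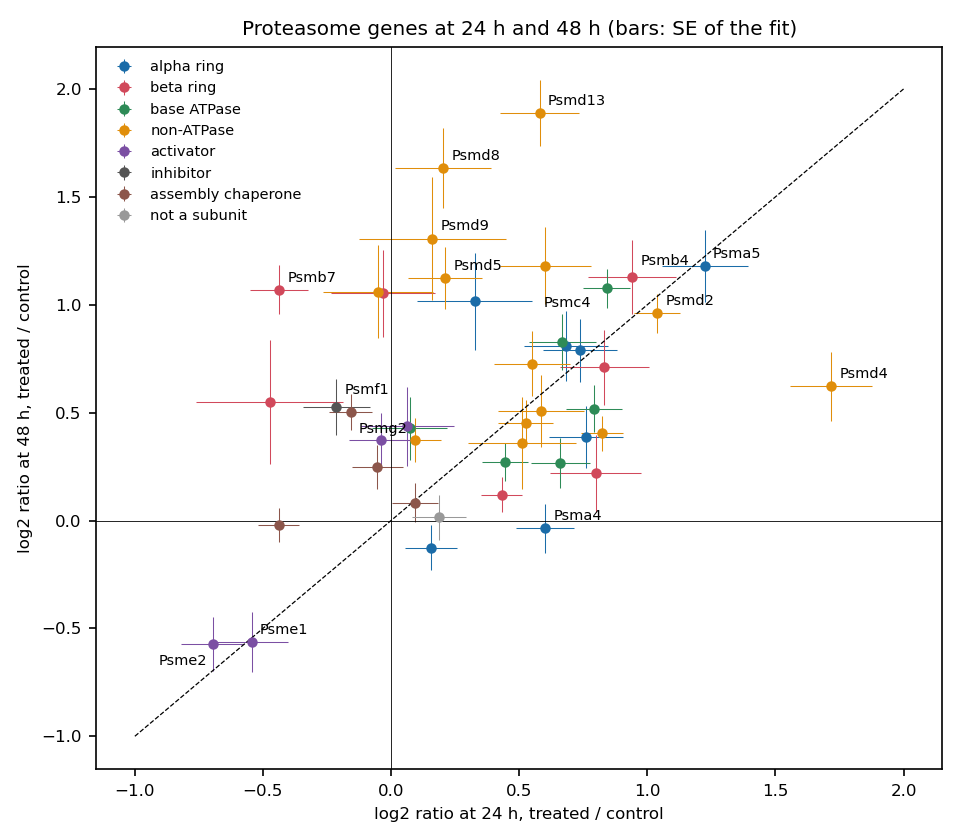
Each point is a tested proteasome gene, with its log2 ratio at 24 h on the horizontal and at 48 h on the vertical axis, bars of 1 SE of the fit, colour for the class, and a dashed line of equal ratios. Psmd13, Psmd8 and Psmb7 lie far above the line, Psmd4 and Psma4 below it, and Psme1 and Psme2 are low on both axes (above 0 at 48 h under median centring). The probes of Psmd13, Psmd8 and Psmb7 are dimmer (mean log2 intensity 10.1 to 10.3) than those of Psmd4 (13.1) and Psma4 (11.5).

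Of the 18 members that rose at 24 h, 12 also rose at 48 h, which is 66.7% of the 24 h list and 48.0% of the 48 h list. At 48 h 17.9% of all genes rose. The overlap among all genes is not given here, so no trait of the members is read from theirs. The 12 members called at both times were Psma1, Psma2, Psma5, Psmb4, Psmb5, Psmc1, Psmc3, Psmc4, Psmd1, Psmd2, Psmd3 and Psmd4. Tested directly, 6 members were higher at 48 h than at 24 h (7.8% of all genes were), namely Psmb7, Psmd8, Psmd13, Psmd5, Psmf1 and Psmg2, and 2 were lower (2.65% of all genes were), Psmd4 and Psma4. In Psma4, Psmb5, Psmc3 and Psmd12 the brighter probe was higher at 24 h and a dimmer probe of the same gene was higher at 48 h. Both probes of Psmc1, Psmd9, Psmd10, Psme4 and Psmg1 were higher at 48 h, and both of Psmc2 at 24 h. The part of probe brightness in these courses was not tested. From 8 to 24 h, 11 members rose and 2 fell, against 2.46% and 3.82% of all genes. From 3 to 8 h the limma contrast called 0 members in either direction (0.533% and 0.292% of all genes), and at an unadjusted p under 0.05 there were 17 higher and 4 lower. From 48 to 72 h, 26 members fell and 0 rose, against 10% and 6.56% of all genes, and at an unadjusted p under 0.05 the limma contrast gave 2 higher members. Over all time points, 36 of 44 members differed in the moderated F test of limma, against 23.3% of all genes. With slide as a block, 0 members differed from 8 to 24 h, 0 from 24 to 48 h, 15 from 48 to 72 h and 8 in the F test, and under median centring these 4 counts were 0. The 13 differences from 8 to 24 h became 2 without replicate 2 of 8 h, the 8 from 24 to 48 h became 2 without replicate 1 of 24 h, and the 26 from 48 to 72 h became 10 without replicate 3 of 72 h and 11 without replicate 3 of 48 h.

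Because the ratio has a control liver below the line, both channels were read separately, as log2 levels scaled between arrays. From 48 to 72 h the treated level was lower in all 26 called members, with a median change of -1.01, while their control level changed by a median of 0.12. From 8 to 24 h the 11 members that rose had a median change of 0.90 in the treated and 0.09 in the control level. From 24 to 48 h the 6 members that rose differed from this: their control level was lower in 6 of 6, with a median change of -0.69, and their treated level changed by a median of 0.35. Over all 44 members in that interval the control level was lower in 36, with a median change of -0.25, and the treated level in 25, with a median change of -0.089. Control livers themselves differed over time in 4 members, or 9.09%, against 3.68% of all genes (treated livers in 30 members, 68.2%, against 18.7%). These 4 were Psma6, Psmb7, Psmd13 and Psme2. The mean control level of Psmd13 was 10.37 at 24 h and 9.38 at 48 h, beside treated levels of 10.95 and 11.27. That of Psmb7 was 10.28 and 9.57, beside treated levels of 9.85 and 10.64. The mice at different times are different animals on different slides, and the part of the control level in these differences was not tested further.

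The activators, caps that open the core without ATP, divided. Psme3, whose product acts mainly in the nucleus (chr11:101184289-101184348), was the one member that rose at 3 h, with 1.75 and 1.16 on the 2 arrays, followed by 1.20 and 0.54 at 8 h and by -0.0023 and 0.13 at 24 h. Its fitted ratio was 1.45 ± 0.18 at 3 h (adjusted p = 0.00448) and 0.87 ± 0.18 at 8 h, both called. When the core and regulatory genes were high it was at 0.06 ± 0.18 (24 h) and 0.44 ± 0.18 (48 h), neither called. The 3 h call of Psme3 held under each processing alternative and the scan day block but median centring, and its 8 h call did not. Psme1 and Psme2, the interferon-responsive subunits of the other activator cap, fell at 24 and 48 h. Psme2 read -0.61 and -0.58 at 8 h, -0.55 and -0.85 at 24 h and -0.31 and -0.83 at 48 h, with ratios of -0.60 ± 0.12, -0.70 ± 0.12 and -0.57 ± 0.12. Psme1 read -0.46 and -0.62 at 24 h and -0.48 and -0.65 at 48 h, with ratios of -0.54 ± 0.14 and -0.56 ± 0.14. All these arrays were below 0, but under median centring the 48 h ratios turned to 0.14 for Psme2 and 0.04 for Psme1. Even without median centring, both calls of Psme1 and the 8 h call of Psme2 did not hold under each processing alternative and the scan day block. The calls of Psme2 at 24 and 48 h held under all of these but median centring. Of the 2 further probes of Psme2, one read -0.79 at 24 h, which was called, and -0.093 and -0.29 at 8 and 48 h, which were not. The other read -0.14, 0.0044 and -0.074 at 8, 24 and 48 h and was called at none. The control level of Psme2 was itself 12.29 at 3 h and 12.98 at 48 h, beside treated levels of 12.33 and 12.40. Psme4 was called at no time point.

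Psmf1, the inhibitor of the core, read 0.55 and 0.57 at 8 h, -0.10 and -0.33 at 24 h and 0.28 and 0.77 at 48 h. It rose by 0.56 ± 0.13 at 8 h and 0.53 ± 0.13 at 48 h and was at -0.21 ± 0.13 between them. The 48 h call held under each processing alternative and the scan day block, and that of 8 h did not, even without median centring. Its probe was dim (mean log2 intensity 7.79).

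Of the 4 dedicated assembly chaperones of the alpha ring, 2 were called lower at 3 h and 3 at 8 h, where 4.08% and 7.57% of all genes were. Psmg3 and Psmg4 fell at 3 h, by 0.37 ± 0.09 and 0.43 ± 0.10, and at 8 h by 0.50 ± 0.09 and 0.53 ± 0.10. Psmg1 read -0.65 and -0.69 at 8 h and -0.47 and -0.40 at 24 h, and fell by 0.67 ± 0.08 and 0.44 ± 0.08. Its second probe was at -0.37 and -0.32 at these times, not called, and at 0.36 at 48 h, where it was called and the main probe was at -0.02. Psmg2 read 0.47 and 0.54 at 48 h, a rise of 0.50 ± 0.08. Each of these chaperone calls was lost with the scanner software's own log ratio, under which 0 members were called lower at 3 h and at 8 h in the limma test.

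**Figure D5:**
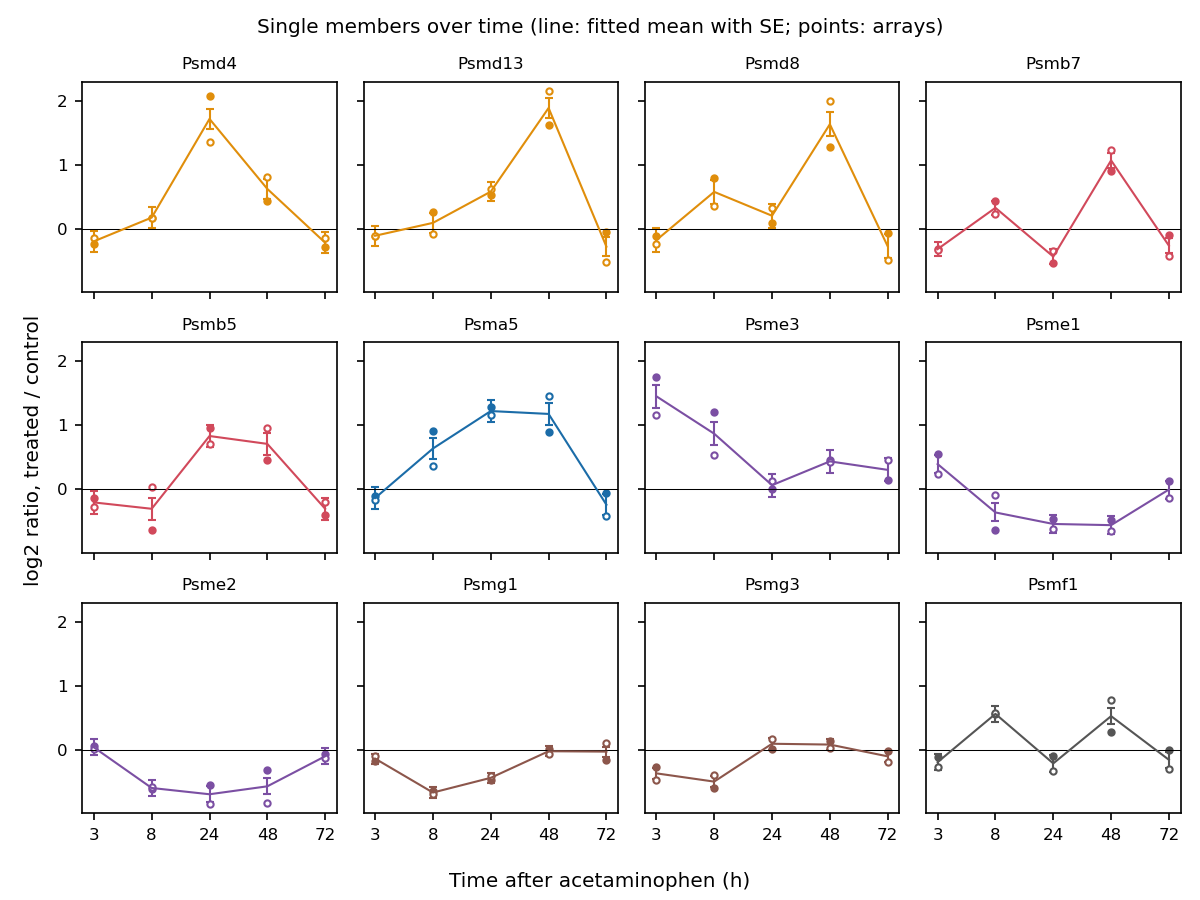
Log2 ratios of 12 members over time, with lines for the fitted mean, bars for its SE, filled points for the first and open points for the second array of each time point. Psmd4 peaks at 24 h (1.72), Psmd13, Psmd8 and Psmb7 at 48 h (1.89, 1.63 and 1.07), Psme3 at 3 h (1.45), and Psme1, Psme2 and Psmg1 are below 0 at 8 and 24 h; Psma5 at 8 h and Psme1 and Psme2 at 48 h change sign under median centring.

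The inducible core subunits that replace Psmb5, Psmb6 and Psmb7 in the immunoproteasome did not share the rise. Psmb8 was at -0.92 ± 0.23 at 24 h (arrays -0.61 and -1.23), a fall, and at -0.31 ± 0.23 at 48 h. At 3, 8 and 72 h it was at 0.04, -0.20 and -0.04. The 24 h call of Psmb8 did not hold under each processing alternative and the scan day block, even without median centring. Psmb10 was at 0.13, -0.58, -0.73, -0.72 and 0.21 from 3 to 72 h and fell at 48 h (arrays -0.25 and -1.19). Psmb9 was at 0.66, -0.61, -0.75, -0.76 and -0.12 and was called at no time point. Of 8 immunoproteasome and antigen processing genes, 4 fell at 24 h and 4 at 48 h, with the largest called falls of 48 h in B2m, the light chain of class I molecules (-2.04 ± 0.23), Psmb10 and the peptide-trimming enzyme gene Erap1 (-0.65 ± 0.13). Among all genes 7.09% and 13.5% fell at these times.

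Among 12 tested partners of the proteasome, 4 rose and 1 fell at 48 h (17.9% and 13.5% of all genes did), with a list median of 0.23 beside -0.01 over all genes. Those that rose were Zfand2a, a stress-induced zinc finger protein (1.61 ± 0.30), the deubiquitinases Uchl5 (0.95 ± 0.19) and Usp14 (0.43 ± 0.09), and Fbxo7 (0.35 ± 0.11), while Ecpas fell by 0.32 ± 0.08. At 8 h Zfand5, a proteasome-binding activator of degradation, had been at 2.97 and 2.50 on the 2 arrays, a rise of 2.73 ± 0.16 that was back to 0.04 ± 0.16 at 24 h. Pomp, which matures the core particle, was at -0.04, -0.51, -0.01, 0.19 and -0.42 from 3 to 72 h and fell at 8 h, at the same time as Psmg1, Psmg3 and Psmg4. None of these 8 h calls held under each processing alternative and the scan day block, even without median centring.

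Of the regulators, neither Nfe2l1 nor Nfe2l2, which encode factors that bind antioxidant response elements, was called at any time point. Nfe2l1 was at -0.15, -0.03, 0.26, -0.01 and -0.20 from 3 to 72 h, with SE 0.12, and Nfe2l2 at -0.44, -0.16, -0.40, -0.32 and 0.22, with SE 0.24. Both factors are known to be controlled largely at the protein level, which arrays do not measure. Ddi2, the protease that releases the Nfe2l1 product from the endoplasmic reticulum, read 1.00 and 0.95 at 8 h and rose by 0.97 ± 0.09. The small Maf genes Maff and Mafk rose at 8 h too, by 3.94 and 1.64, and so did Bach1, by 1.44 ± 0.23. With Ddi2 these were the 4 of 11 regulators that rose then (5.33% of all genes did). At 48 h 3 of 11 regulators rose, against 17.9% of all genes, namely Maff (1.42 ± 0.36) and Mafk (0.46 ± 0.09) and Keap1 (0.58 ± 0.17), and Syvn1, a ubiquitin ligase of the endoplasmic reticulum, fell by 1.01 ± 0.21.

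Ubiquitin genes and shuttle factors gave 6 rises among 23 tested genes at 8 h, 8 at 24 h and 13 at 48 h, with 1 fall at 48 h. Among all genes 5.33%, 3.79% and 17.9% rose at these times, and 13.5% fell at 48 h. Ubb, which encodes ubiquitin, came early: it read 1.83 and 1.62 at 8 h, a rise of 1.72 ± 0.18, and was at 0.06 ± 0.18 at 24 h. At 48 h the largest rises were those of Rps27a, a ubiquitin fusion with a ribosomal protein (1.92 ± 0.24), and of Ufd1 and Nploc4, the cofactors of the unfolding ATPase Vcp (1.11 ± 0.16 and 1.02 ± 0.19), and Bag6 fell by 0.53 ± 0.14. Vcp itself read 1.89 and 1.19 at 24 h, a rise of 1.54 ± 0.16. The median of this list was 0.22, 0.23 and 0.46 at 8, 24 and 48 h, beside medians between -0.01 and 0 over all genes.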

How the data were processed

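Liver RNA of 10 pairs of mice was measured on 10 two-colour arrays. Per the file headers, the scanner output comes from Agilent Feature Extraction 10.7.3.1. It holds, as deposited, the mean and background intensity of both channels and the software's log10 ratio. The authors' deposited value table holds a score of unstated scale: it was 1.44 times the log10 ratio on every array (correlation 1, median 0), hence treated over control, and was used, rescaled, as an alternative. Intensities were corrected with normexp (offset 50) and loess was applied to the ratios (limma 3.58.1, R 4.3.3), leaving out 1377 control spots. Probes well above background in 1 channel on both arrays of a time point were kept (29623 of 39429), and the brightest stood for its gene. A limma model (lmFit, eBayes) of the 10 arrays had 1 coefficient for each time, leaving 5 residual degrees of freedom. Its two-sided p-values were Benjamini-Hochberg adjusted at 0.05 over 24007 genes. They measure the spread between these mice and arrays, whose number limits the precision. Channel levels came from Aquantile scaling after loess. The fit was tested on simulated data. Probe positions are those of the files (mm9), and exons and UTRs were not analysed here. Gene names came from the files or the RefSeq table.

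Members and lists were chosen with earlier results of these data known. Named were, at 48 h, when most members were called, up to 2 called members each way in every class, at other times the 3 largest each way, the 2 largest each way between neighbouring times, the catalytic subunits, up to 3 genes each way from the partner lists, and Nfe2l1, Nfe2l2, Pomp and Psmb8 to Psmb10. Further members are given to account for each gene. Alternatives changed the background correction, normalization, probe filter, probe choice, variance prior, scan day and each array.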

Additional observations from a re-analysis of the deposited data

Results flagged for a closer look

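The groups compared here are time points, with 2 arrays each, and the differences between them were tested as contrasts of the ratios. In the F test 36 members differed between time points, as did 23.3% of all genes. From 8 to 24 h, 11 members were higher, led by Psmd4 (1.54 ± 0.23) and Psmd2 (1.44 ± 0.13), and 2 were lower, Psmf1 (-0.78 ± 0.18, adjusted p = 0.0494) and Psmb7 (-0.76 ± 0.16). From 24 to 48 h, 6 were higher, led by Psmb7 (1.51 ± 0.16) and Psmd8 (1.43 ± 0.26), and 2 were lower, Psmd4 (-1.10 ± 0.23) and Psma4 (-0.64 ± 0.16). From 48 to 72 h, 26 were lower, led by Psmd13 (-2.17 ± 0.22) and Psmd8 (-1.91 ± 0.26). Of all genes, 2.46% were higher and 3.82% lower from 8 to 24 h. These shares were 7.8% and 2.65% from 24 to 48 h, and 10% were lower from 48 to 72 h. By the probes used, Psmd4 and Psmb7 moved in opposite directions over both of the middle intervals. Both were picked as extremes of these contrasts, and their probes differ in brightness (mean log2 intensity 13.1 and 10.2). With slide as a block or under median centring, the member calls of these 2 intervals were lost. The part of probe brightness was not tested.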

How the results depend on the processing

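Of 68 calls at single time points, the 65 of members and those of Pomp, Psmb8 and Psmb10, 34 kept their direction and call under each processing alternative and the scan day block except median centring, and 13 under median centring too, all of the latter at 48 h. Apart from Nfe2l1, Nfe2l2 and Psmb9, which had no call, the other listed genes were not run under the alternatives. Under median centring the ratio changed sign at 24 h for Psma2 (-0.033), Psma4 (-0.11), Psma7 (-0.0022), Psmb6 (-0.35), Psmc1 (-0.084), Psmc2 (-0.070), Psmc3 (-0.0033), Psmc5 (-0.21) and Psmd1 (-0.18), at 8 h for Psma5 (-0.074), and at 48 h for Psme1 (0.039) and Psme2 (0.14). It moved the median of all genes by up to -0.24 (3 h). Its counts were 0 higher and 20 lower members at 3 h, 0 and 2 at 8 h, 0 and 0 at 24 h, 14 and 0 at 48 h, and 0 differing in the F test and in the 3 later contrasts, and core minus regulatory was -0.034, -0.0018 and -0.058 at 3, 8 and 24 h. Among all genes it called 4.18% higher and 20.8% lower at 3 h and 0.675% and 9.86% at 8 h. At 24 h these shares were 0.108% and 3.03%, and at 48 h 10.5% and 1.59%.

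The software's log ratio and the authors' table gave the same counts: 0 lower at 3 h, 0 higher and 0 lower at 8 h, 1 lower at 24 h and 1 at 48 h, 4 differing from 8 to 24 h, 4 from 24 to 48 h, 19 in the F test, and a core difference of 0.0054 at 24 h. Without background correction 6 rose at 8 h, 1 differed from 3 to 8 h, 0 in control livers, and the core difference at 24 h was 0.024. With a normexp offset of 0, 1 rose and 2 fell at 8 h, 1 fell at 24 h, 5 differed from 8 to 24 h, 5 from 24 to 48 h and 0 in control livers. Without the dim-probe filter 3 fell at 3 h and 2 at 24 h, 1 differed in control livers, and the core difference was -0.066, 0.010 and -0.13 at 8, 24 and 48 h. With probes well above background on all arrays, 1 differed from 3 to 8 h and 8 in control livers. The mean of all probes gave core differences of -0.027 at 3 h and 0.017 at 72 h, and means in place of medians gave -0.059, -0.083, -0.17 and -0.023 from 8 to 72 h. With an intensity trend 2 fell at 3 h, 1 at 24 h, and 4 differed from 8 to 24 h. The cause was not tested.

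Same-numbered arrays did not deviate together (correlations from -0.12 to 0.29), so numbers were not taken as pairs. With scan day as a block (day 1 holds replicate 1, or replicate 2 of 8 h, and day 2 holds replicate 3), 3 fell at 3 h, 2 at 24 h, and 10 differed in control livers. With slide as a block, 0 fell at 3 h, 1 rose and 1 fell at 8 h, 7 rose and 0 fell at 24 h, 14 rose and 0 fell at 48 h, 0, 0 and 15 differed in the 3 later contrasts, 8 in the F test and 0 in control livers. Among all genes 0.583% fell at 3 h with that block, and 2.46% rose and 3.38% fell at 8 h. At 24 h 1.82% rose and 4.46% fell, and at 48 h 9.46% rose and 5.84% fell.

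Leaving out each array in turn gave 0 to 1 higher and 0 to 6 lower members at 3 h, 0 to 5 and 1 to 7 at 8 h, 7 to 21 and 0 to 3 at 24 h, and 14 to 28 and 0 to 2 at 48 h. It gave 0 to 2, 2 to 15, 2 to 11 and 10 to 30 differing in the 4 contrasts in order of time, 22 to 36 in the F test and 0 to 7 in control livers. The core difference ran from -0.01 to 0.05 at 3 h, 0.02 to 0.09 at 8 h, 0.06 to 0.13 at 24 h, -0.03 to 0.17 at 48 h and 0.03 to 0.08 at 72 h. The fewest rises came without replicate 1 of 24 h (7, at 24 h) and without replicate 3 of 48 h (14, at 48 h), and the F test called 22 and 23 without either array of 3 h. A lone array was assumed to vary like the rest.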

Other observations

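Of the 44 tested members, 7 were called at no time point by the probe used: Psma3, Psmb1, Psmc6, Psmd11, Psmd12, Psme4 and Psmc3ip. Psmd12 had a ratio of 0.60 ± 0.17 at 8 h, 0.58 ± 0.17 at 24 h and 0.51 ± 0.17 at 48 h, with adjusted p of 0.0559, 0.071 and 0.0536 in the limma fit. Psmc3ip, which is no proteasome subunit, ranged from -0.09 to 0.19.

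At 48 h the ratio of 34 of the 44 members was larger on replicate 3 than on replicate 1, and 36 were above 0 on both arrays. At 72 h 34 members were below 0 on both arrays and 1 was above 0 on both.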
